A study of Mus musculus with 2 samples.

Results

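The mitochondrial carrier family was examined in total RNA of mouse heart. Members were chosen by name alone, as every gene whose symbol begins with Slc25a together with Ucp2, Ucp3, Mtch1 and Mtch2, provided that the gene had at least 1 protein-coding transcript. The rule gave 51 genes, 47 of them named Slc25a, out of 55536 genes in the files and 22015 nuclear protein-coding genes. The hearts came from male B6CASTF1/J mice aged 36 days, the first-generation offspring of a B6 by CAST mating, and all samples form 1 group with no treatment and no control. The 2 biological replicates, called hearts here, are separate biosamples listed under a shared donor entry, which may or may not mean 1 animal (the sources used here do not say). Libraries were ribosome-reduced and stranded, from 300 ng of RNA with ERCC spike-ins. Reads were assigned to mm10, the genome of the B6 parent, so reads from CAST alleles were counted against B6 sequence.

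Carriers of this family sit in the inner mitochondrial membrane and exchange nucleotides, phosphate, organic acids, amino acids and cofactors between the cytosol and the matrix. Most are built from repeats of the same membrane-spanning unit and are encoded in the nucleus. Heart muscle makes most of its ATP in mitochondria, and that ATP leaves the matrix through the ADP/ATP carrier while phosphate enters through the phosphate carrier. Some members sit elsewhere, Slc25a17 in peroxisomes and Mtch1, Mtch2 and Slc25a46 in the outer mitochondrial membrane.

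The libraries held 41846508 and 42481559 expected counts in replicates 1 and 2, of which 225579 and 241557 fell on the family. Levels between genes are given as TPM, a length-corrected value, from the first of 2 deposited quantifications, and errors are SD over the hearts (n = 2 throughout). Ratios are log2 of replicate 1 over replicate 2 on TMM-scaled expected counts, with a 95% counting interval in parentheses. No value is tested, because with 2 hearts the smallest p of an exact sign permutation is 0.5. All 6 cardiomyocyte markers (Myh6, Myl2, Actc1, Tnnt2, Tnni3 and Ryr2) were at 1 TPM or more in both hearts, with summed levels of 25136 and 27578 TPM in replicates 1 and 2. Skeletal muscle markers summed to 1.53 and 1.66 TPM and liver markers to 3.51 and 1.64 TPM. Nearly all of the liver sum was Cyp2e1, at 3.47 and 1.60 TPM. The 5 testis germ cell markers (Prm1, Prm2, Tnp1, Acrv1 and Ldhc) were listed at 0.

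The phosphate carrier gene Slc25a3 (mm10, chr10:91116574-91124059, minus strand) has annotated forms that differ in sequence. Their shares in the hearts are estimates for whole transcripts, and reads on single exons were not counted. It has 2 alternative coding exons, used one in place of the other, and the form with exon A is known as the one of heart and skeletal muscle, while the exon B form is found in most tissues. Exon A lies at chr10:91122207-91122331 and spans 125 nt, and exon B lies at chr10:91121922-91122043 and spans 122 nt, both on the minus strand of mm10. They are printed 5′ to 3′ as transcribed, with capitals marking bases that differ between them or have no partner in the alignment.
Slc25a3 exon A: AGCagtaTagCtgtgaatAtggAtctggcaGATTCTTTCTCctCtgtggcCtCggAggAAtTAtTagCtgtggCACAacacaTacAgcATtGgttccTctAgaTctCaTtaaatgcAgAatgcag
Slc25a3 exon B: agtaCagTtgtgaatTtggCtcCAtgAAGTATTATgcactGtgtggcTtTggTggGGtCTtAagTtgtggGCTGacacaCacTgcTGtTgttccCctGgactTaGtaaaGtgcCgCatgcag
The exons matched at 81 of 110 aligned bases, an identity of 73.6%.

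In both hearts nearly all Slc25a3 signal in the first quantification fell on the transcript that carries exon A. Slc25a3-206, which holds exon A, took 91.4% of the gene's TPM in replicate 1 and 92.0% in replicate 2. Slc25a3-201 and Slc25a3-203, which hold exon B, together took 7.97% and 7.58%. Of the TPM on exon A and exon B transcripts, exon A therefore held 92.2% ± 0.287. The second quantification, made directly from the reads, also placed Slc25a3-206 first in both hearts but at a lower share, 75.2% and 72.7% of the gene, with 20.3% and 18.8% on exon B transcripts. Its exon A share of both forms was 79.1% ± 0.536. The hearts lay within 3 percentage points of each other in each quantification, and the quantifications lay further apart than the hearts.

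**Figure D1:**
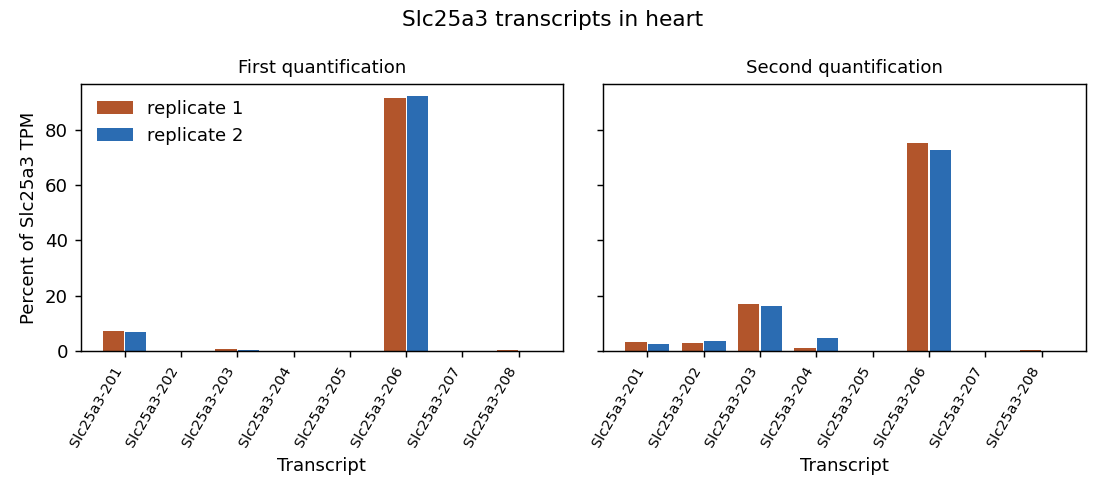
Percent of the Slc25a3 TPM held by each of its annotated transcripts (horizontal axis) in replicate 1 and replicate 2, in the first quantification (left panel) and the second (right panel); each bar is 1 library. Slc25a3-206, with exon A, stands at 91.4% and 92.0% in the first quantification and at 75.2% and 72.7% in the second, and Slc25a3-203, with exon B, is the next highest in the second.

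The family was broadly present and very unevenly expressed. In both hearts 41 of 51 members reached 1 TPM, against 49.7% of all nuclear protein-coding genes. By number the members make up 0.232% of nuclear protein-coding genes, and they held 1.07% and 1.13% of nuclear protein-coding TPM in replicates 1 and 2, or 1.10% ± 0.0406. Summed levels were 4025 and 4274 TPM. At least 100 TPM was reached by 5 members in both hearts, at least 10 TPM by 21 and at least 5 TPM by 29. Slc25a4 alone held 45.7% ± 1.29 of the family's TPM, Slc25a4 and Slc25a3 together 67.9%, and the 10 highest members 90.3%.

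**Figure D2:**
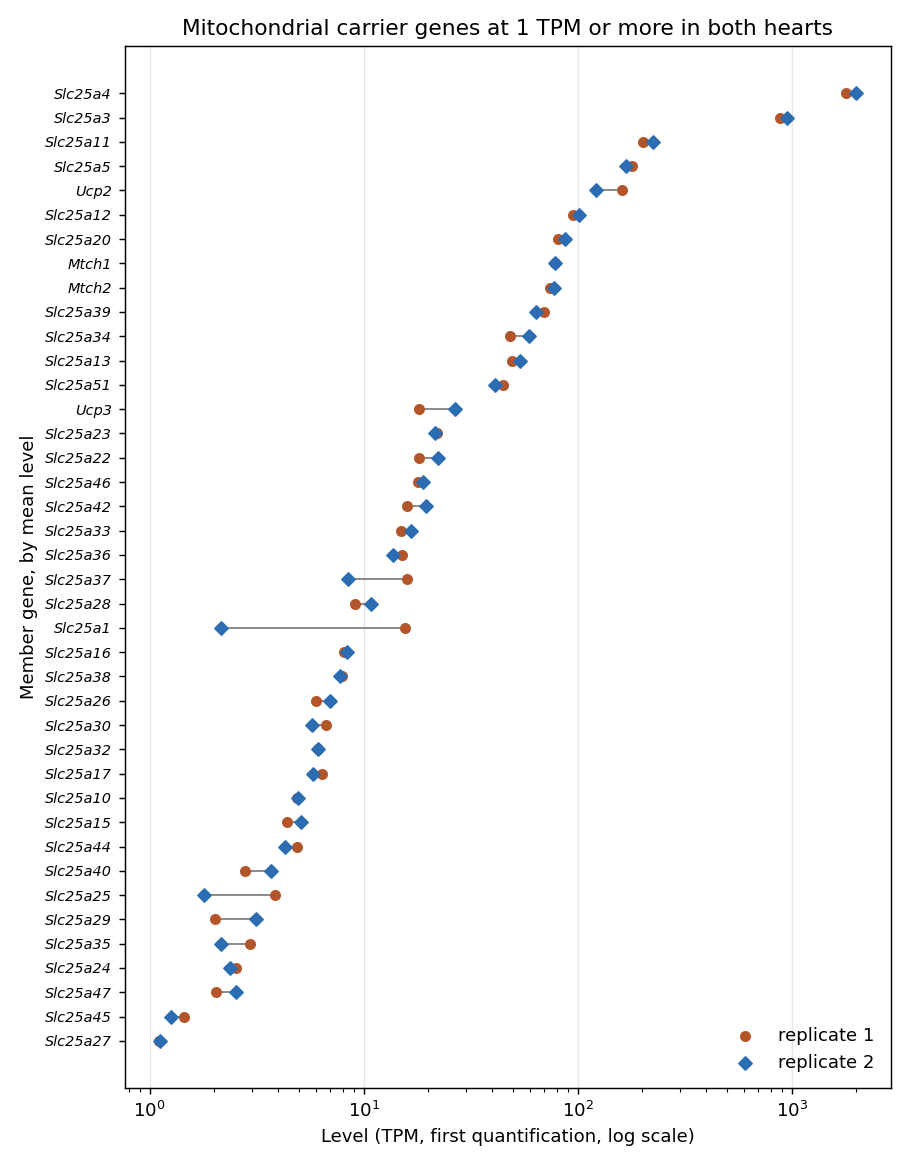
Level in TPM (horizontal axis, log scale, first quantification) of 40 of the 41 members at 1 TPM or more in both hearts, ordered by mean; circles are replicate 1, diamonds replicate 2, and grey lines join the hearts. Slc25a4 and Slc25a3 stand highest, and the longest line between the hearts is that of Slc25a1, at 15.6 and 2.16 TPM.

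Carriers of adenine nucleotides and phosphate were the largest group by level, with 72.7% ± 1.08 of the family's TPM in 8 genes. Slc25a4, the ADP/ATP carrier of heart and muscle (chr8:46206797-46211284), was at 1802 and 1992 TPM in replicates 1 and 2, the highest level of any member in both hearts. Slc25a3 followed at 885 and 955 TPM. Slc25a5, a more widely expressed ADP/ATP carrier encoded on the X chromosome, was at 180 and 168 TPM. The hearts differed by less than 1.2-fold for each of these 3 genes, and the 3 levels did not overlap.

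Among the ADP/ATP carriers the muscle form dominated. Slc25a4 held 91.6% ± 0.926 of the TPM of Slc25a4, Slc25a5 and the germ cell form Slc25a31, which had 4 and 1 counts. Slc25a4 and Slc25a5 have coding sequences of the same length, 894 nt, that were identical at 79.8% of aligned bases. Slc25a5 has 7 pseudogenes with at least 90% identity over at least 500 bases on its transcript, the closest Gm5560 at 98.3% over 887 bases. These copies took 11.3 and 7.45 counts in sum, against 6909 and 6462 counts on Slc25a5, and the split between them is uncertain. By the same rule Mtch2, Slc25a3, Slc25a36, Slc25a40 and Slc25a51 have 1 pseudogene each, with at most 3.07 counts in a library. Identity ran from 90.1% for that of Slc25a3 to 99.6% for that of Slc25a36. Of the calcium-regulated carriers of ATP-magnesium and phosphate, Slc25a23 was at 22.1 and 21.5 TPM, Slc25a24 at 2.54 and 2.37 TPM and Slc25a25 at 3.86 and 1.79 TPM. Slc25a23 held 80.6% ± 4.43 of the TPM of these 3, and their relative Slc25a41 had 0 counts in both libraries. The limit that a count of 0 allows is 3 counts, which is 0.0717 CPM in replicate 1 and 0.0706 CPM in replicate 2 (counts scaled to the library total), and floors and intervals here cover counting error only.

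Carriers of organic acids held 5.49% ± 0.0985 of the family's TPM, nearly all of it from 1 gene. Slc25a11, which exchanges oxoglutarate for malate in the malate-aspartate shuttle, was at 203 and 224 TPM. Slc25a10, the dicarboxylate carrier, was at 4.89 and 4.94 TPM, and Slc25a11 held 97.7% ± 0.139 of the TPM of both. Slc25a1, which exports citrate for fatty acid synthesis, was at 15.6 and 2.16 TPM, the widest ratio between the hearts among members with a mean count of 50 or more. Slc25a21, the carrier of oxodicarboxylates, had 9 and 14 counts.

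Amino acid carriers held 4.58% ± 0.0734 in 9 genes, 7 of them at 1 TPM or more in both hearts. Both aspartate/glutamate carriers, the other exchangers of the malate-aspartate shuttle, were above 40 TPM in both hearts. Slc25a12 was at 95.04 and 101.5 TPM and Slc25a13, the form known from liver, at 49.6 and 53.7 TPM, which gave Slc25a12 65.6% ± 0.243 of their sum, although most of its TPM fell on a transcript that is not annotated as protein-coding. The glutamate carrier Slc25a22 was at 18.2 and 22.2 TPM and held 99.8% ± 0.0210 against its relative Slc25a18, which had 2 counts in each library. The ornithine carrier Slc25a15 was at 4.39 and 5.11 TPM and held 97.5% ± 0.259 against Slc25a2, with 5 counts in each. The glycine carrier Slc25a38, needed for heme synthesis, was at 7.89 and 7.77 TPM, and Slc25a44, a carrier of branched-chain amino acids, at 4.89 and 4.27 TPM.

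The carnitine/acylcarnitine carrier Slc25a20 (chr9:108662088-108684641), which brings fatty acyl groups into the matrix for oxidation, was at 80.9 and 87.1 TPM, or 2.02% ± 0.0205 of the family. It held 97.0% ± 0.721 of the TPM of Slc25a20 and its relative Slc25a29, a carrier of basic amino acids at 2.03 and 3.13 TPM. Nearly all of Slc25a20 was 1 transcript, Slc25a20-201, at 99.6% and 99.3% of the gene.

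Carriers of cofactors and other nucleotides were the largest group by number with 11 genes, all at 1 TPM or more in both hearts, and held 4.89% ± 0.284. The glutathione carrier Slc25a39 was at 69.7 and 64.2 TPM, 95.4% ± 1.14 of its sum with Slc25a40, which was at 2.78 and 3.70 TPM. The NAD carrier Slc25a51 was at 44.6 and 41.0 TPM and the coenzyme A carrier Slc25a42 at 15.9 and 19.6 TPM. Slc25a42 held 68.3% ± 2.68 against Slc25a16, at 8.06 and 8.35 TPM. The pyrimidine nucleotide carriers Slc25a36 and Slc25a33 were close to even, with Slc25a36 at 15.1 and 13.8 TPM and Slc25a33 at 14.9 and 16.7 TPM, so that the higher of the pair changed with the heart in the first quantification. In the second Slc25a33 was higher in both hearts. Slc25a26 for S-adenosylmethionine, Slc25a32 for folate and the peroxisomal Slc25a17 lay between 5.79 and 6.96 TPM in both hearts.

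Of the uncoupling proteins and close relatives, which held 4.16% ± 0.696, Ucp2 was the highest. It was at 160 and 122 TPM in replicates 1 and 2, whereas Ucp3, the form of muscle, was at 18.1 and 26.7 TPM. Ucp3 held 10.1% and 17.9% of the TPM of both in replicates 1 and 2 (24.8% of their expected counts on average), with Ucp2 higher and Ucp3 lower in replicate 1. The genes lie 6904 bases apart on chromosome 7, on the same strand, and their coding sequences were identical at 79.3% of aligned bases. Among the relatives Slc25a30 was at 6.65 and 5.71 TPM, Slc25a27 at 1.11 and 1.12 TPM and Slc25a14 at 0.880 and 0.800 TPM.

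The mitoferrins, which bring iron into the matrix, exchanged places between the hearts. Slc25a37, the form known from red cell precursors, was at 15.9 and 8.48 TPM in replicates 1 and 2, and Slc25a28, the widely expressed form, at 9.14 and 10.8 TPM. Slc25a28 therefore held 36.5% of their sum in replicate 1 and 56.0% in replicate 2. By expected counts, which are not corrected for length, its mean share was 23.6%. In the outer membrane Mtch1 was at 78.1 and 78.0 TPM, Mtch2, an insertase for membrane proteins, at 73.9 and 77.8 TPM and Slc25a46, which acts in mitochondrial shape, at 18.0 and 18.9 TPM. Mtch2 held 49.3% ± 0.911 of the TPM of Mtch1 and Mtch2.

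**Figure D3:**
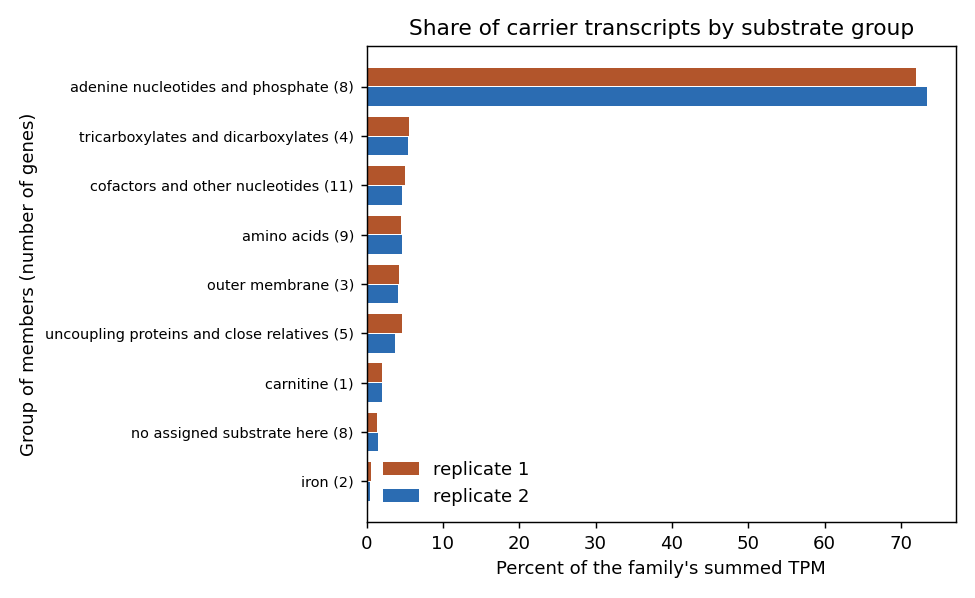
Percent of the family's summed TPM (horizontal axis) held by each group of members, with the number of genes in parentheses; the upper bar of each pair is replicate 1 and the lower bar replicate 2. Adenine nucleotide and phosphate carriers stand at 71.9% and 73.5%, and every other group is under 6% in both hearts.

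The remaining 8 members were placed in no substrate group, held 1.47% ± 0.122 and owed most of it to Slc25a34. Slc25a34 was at 48.1 and 59.1 TPM and held 95.3% ± 1.62 against its relative Slc25a35, at 2.96 and 2.15 TPM. Slc25a47 was at 2.04 and 2.53 TPM and Slc25a45 at 1.44 and 1.26 TPM. The others were under 1 TPM in at least 1 heart. Slc25a53 was at 0.830 and 1.15 TPM, Slc25a43 at 0.12 and 0.18 TPM, Slc25a48 had 9 and 0 counts, and Slc25a54 had 0 counts in both libraries.

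**Figure D4:**
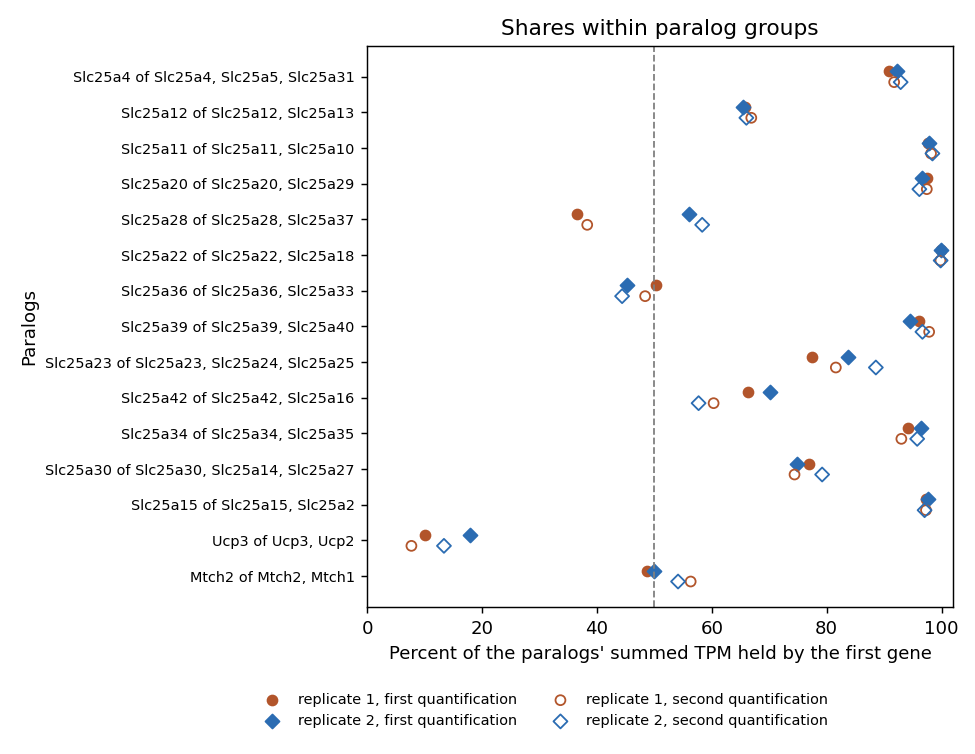
Percent of the TPM of each paralog group held by its first gene (horizontal axis; dashed line at equal shares of a pair), with circles for replicate 1, diamonds for replicate 2, filled for the first quantification and open for the second. Slc25a28 lies at 36.5% in replicate 1 and 56.0% in replicate 2, on either side of the line, and Mtch2 changes side between quantifications.

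In the first quantification the hearts shared the order of levels at the top, while below it the ranges of many neighbors overlapped. An overlap does not mean that the order changed between the hearts, and some lower pairs, such as Slc25a13 and Slc25a51, were apart. Among the 41 members at 1 TPM or more, the ranges of the hearts overlapped for 22 of 40 neighboring pairs in the order. All 10 pairs of neighbors from Slc25a4 down to Slc25a34 were apart, in the order Slc25a4, Slc25a3, Slc25a11, Slc25a5, Ucp2, Slc25a12, Slc25a20, Mtch1, Mtch2, Slc25a39 and Slc25a34. The first pair that overlapped was Slc25a34 and Slc25a13. The second quantification gave another order within these 11 by mean, with Ucp2 at 218 TPM above Slc25a5 at 191 TPM, and with Mtch2 at 113 TPM and Slc25a39 at 106 TPM above Slc25a20 at 98.6 TPM and Mtch1 at 92.1 TPM.

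Levels of most members were close in the hearts, and 3 were not. Of 41 members whose expected counts averaged at least 50, 3 exceeded 2-fold toward replicate 1 and 0 toward replicate 2, or 7.32%, against 1.28% of 12541 genes in either direction, 1.00% higher in replicate 1 and 0.279% higher in replicate 2. At 1.5-fold the count was the same 3 members, against 4.27% of all genes. The rule is one of size, with 1 library on each side. Over the 44 members with a mean count of 10 or more the median log2 ratio was -0.024, against -0.00089 over 15749 genes. Of these members 21 were above 0, or 47.7%, against 49.8% of all genes, and the median absolute log2 ratio was 0.16, against 0.13. At a mean count of 50 or more the median absolute log2 ratio was 0.153 for members, against 0.108 for all genes.

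Slc25a1 (chr16:17925223-17928219) differed most among these 41 members, with 821 counts in replicate 1 and 107 in replicate 2, a log2 ratio of 2.97 (2.69 to 3.29) or 7.85-fold. Adipocyte markers moved with it. Of 8 such markers, 7 had a mean count of 10 or more and all 7 were higher in replicate 1, with a median log2 ratio of 2.88; of the 6 with a mean count of 50 or more, 5 were 2-fold or more higher in replicate 1. One of the 8 is Ucp1, an uncoupling protein that the naming rule left out of the members. With 1635 and 46 counts in replicates 1 and 2, Ucp1 stood at 5.17 (4.77 to 5.65), a wider ratio than that of Slc25a1. Summed over the 8 markers the levels were 110.8 TPM in replicate 1 and 26.9 TPM in replicate 2, and none was at 0 in both hearts. In bulk tissue fewer cells of a type and less RNA per cell cannot be told apart, and the part of these markers in the Slc25a1 difference was not tested.

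The 250 bases before the annotated RefSeq start of Slc25a1 are shown because this gene has the largest ratio of the 41 members. They lie at chr16:17928220-17928469 on GRCm38.p6, the assembly behind mm10, and are printed 5′ to 3′ on the minus strand, the strand of the gene. Capitals mark the GC box, GGGCGG read on either strand.
Slc25a1 upstream: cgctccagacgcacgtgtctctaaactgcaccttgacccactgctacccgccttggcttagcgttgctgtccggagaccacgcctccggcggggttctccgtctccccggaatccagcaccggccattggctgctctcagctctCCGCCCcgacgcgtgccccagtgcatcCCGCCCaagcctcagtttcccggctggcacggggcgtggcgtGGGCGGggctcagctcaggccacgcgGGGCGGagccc
The stretch holds 4 GC boxes and is 70% G and C. RefSeq entries were found for 40 of 51 members, with 51 starts, of which 36 held a GC box in the same window, against 32.7% of 32851 promoters. TATAAA was found at 2 of the 51 starts, against 12.4% of all. TCACNCCAC, a form of the sterol regulatory element, was found upstream of Mtch2, Slc25a18 and Ucp2 and not of Slc25a1, against 1.05% of all. TCAAGGTCA, a site form of estrogen-related receptors, was found at 0 starts, against 0.387% of all. Both strands were read, and a match is a description of letters and not a site.

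Slc25a25 had 376 counts in replicate 1 and 175 in replicate 2, giving a log2 ratio of 1.14 (0.89 to 1.42) or 2.21-fold. Its relatives did not differ as much, Slc25a23 standing at 0.084 (-0.025 to 0.19) and Slc25a24 at 0.0086 (-0.26 to 0.27). Slc25a37 had 2183 and 1109 counts, a log2 ratio of 1.02 (0.92 to 1.13) or 2.03-fold, so close to the 2-fold line that it fell just under it when counts were scaled by library totals or by spike-ins. Its transcript shares 382 identical bases with Gm16867, another gene of chromosome 14, which took 110.1 and 46.9 counts, and the split between the genes is uncertain. Slc25a28 stood on the other side of 0 at -0.21 (-0.40 to -0.020). Erythroid markers moved with Slc25a37. All 7 were higher in replicate 1, with a median log2 ratio of 1.19, 6 of the 6 with a mean count of 50 or more were 2-fold or more higher, their summed levels were 20329 and 9336 TPM in replicates 1 and 2, and none was at 0. Their part in the Slc25a37 difference was not tested.

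The next members toward replicate 1 stood well below 2-fold. Ucp2 was at 0.44 (0.38 to 0.49), with 6052 and 4609 counts. Beside it, macrophage markers summed to 53.2 and 51.5 TPM in replicates 1 and 2, with 2 of 4 higher in each heart. Fibroblast markers summed to 419 and 364 TPM and endothelium markers to 165 and 177 TPM. In each of these 2 lists 3 of 4 markers were higher in replicate 1 and 1 in replicate 2. The adipocyte and erythroid sums are those given above, and the part of any of these lists in the Ucp2 difference was not tested. Slc25a35 was at 0.34 (-0.0038 to 0.70).

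Toward replicate 2 the widest ratio was that of Ucp3 at -0.51 (-0.61 to -0.41), with 1394 and 2051 counts. Slc25a29 stood at -0.50 (-0.84 to -0.17) and Slc25a40 at -0.28 (-0.56 to -0.00085), both on few counts. Slc25a47 stood at -0.27 (-0.81 to 0.25), an interval that spans 0. Slc25a34 stood at -0.26 (-0.32 to -0.20) and Slc25a42 at -0.25 (-0.34 to -0.15). The abundant carriers Slc25a4 at -0.10, Slc25a11 at -0.10, Slc25a12 at -0.10, Slc25a3 at -0.069 and Slc25a20 at -0.067 were slightly lower in replicate 1, as were all 6 cardiomyocyte markers with a median of -0.081, while Slc25a5 was at 0.14. In the second quantification the log2 ratios of Slc25a1, Slc25a25 and Slc25a37 were 2.95, 1.25 and 1.03, and those of Ucp2 and Ucp3 were 0.44 and -0.50. The sign of the ratio was the same under every scaling and in both quantifications for 36 of the 41 members, and not for Mtch2, Slc25a10, Slc25a24, Slc25a36 and Slc25a46, all close to 0.

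**Figure D5:**
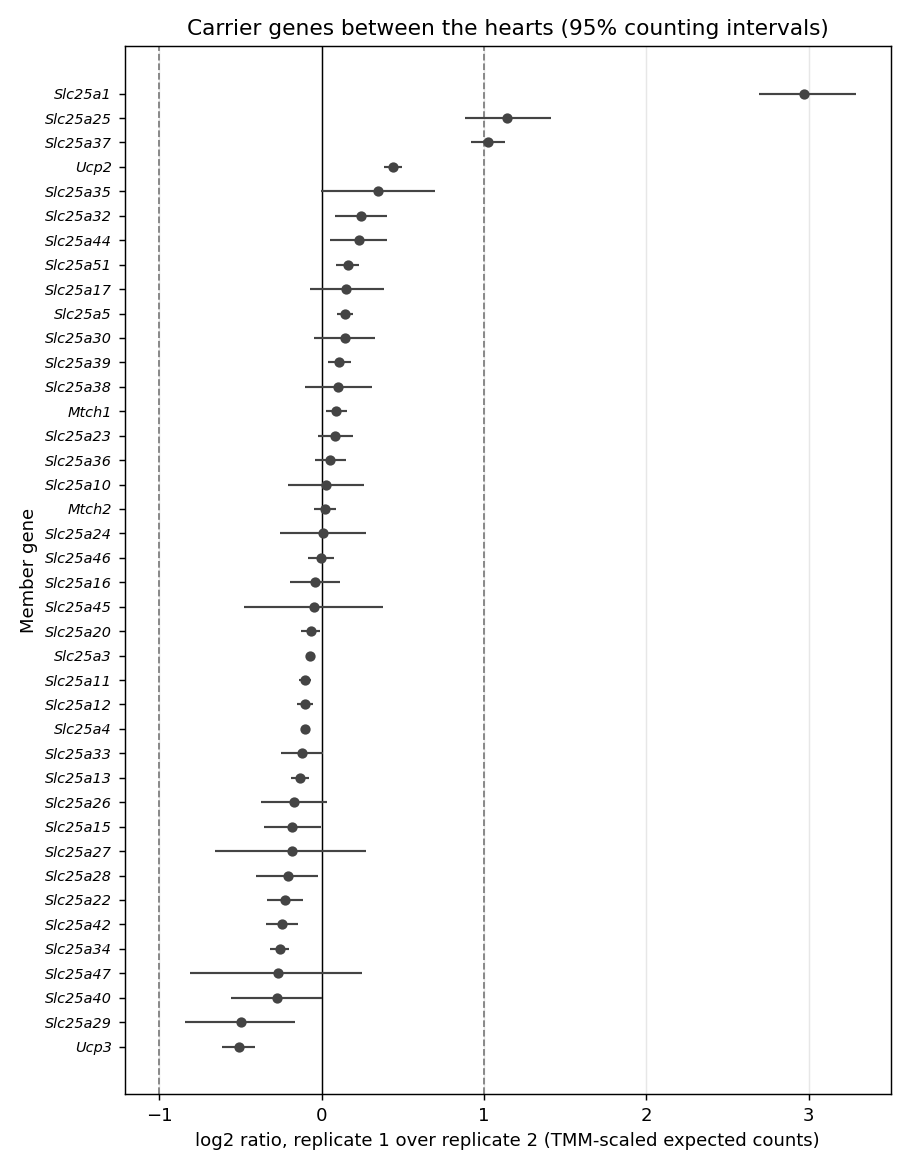
log2 ratio of replicate 1 over replicate 2 (horizontal axis, TMM-scaled expected counts) for 40 of the 41 members whose expected counts averaged at least 50; lines are 95% counting intervals and dashed lines mark 2-fold. Slc25a1 at 2.97, Slc25a25 at 1.14 and Slc25a37 at 1.02 lie beyond the upper 2-fold line, and Ucp3 at -0.51 is the lowest.

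Genes that work beside the carriers were described in the same way, against the 1.28% of all genes that were 2-fold apart. All 10 genes for import of carriers into the inner membrane reached 1 TPM in both hearts, 8 were higher in replicate 1 and 2 in replicate 2, and 0 were 2-fold apart. Above 0 stood 49.8% of all genes with a mean count of 10 or more. The median log2 ratio of the import genes was 0.029, and the intervals of all 8 spanned 0. Toward replicate 2, that of Timm29 did not (-0.19 to -0.014). The highest import genes were the small chaperones of the space between the membranes, Timm8b at 104 ± 0.856 TPM, Timm13 at 49.9 ± 5.11 TPM, Timm10 at 39.1 ± 0.0424 TPM and Timm10b at 32.1 ± 1.41 TPM. Of 10 other mitochondrial channels and transporters 4 were higher in replicate 1 and 6 in replicate 2, and 0 were 2-fold apart. Here the outer membrane channel Vdac1 was at 382 ± 19.8 TPM and Vdac2 at 187 ± 6.46 TPM, and the subunits of the pyruvate carrier, Mpc1 and Mpc2, at 293 ± 5.86 and 244 ± 0.750 TPM. Slc25a4 and Slc25a3 were above all of these genes in both hearts.

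Of 12 enzymes on either side of the shuttles, 2 were higher in replicate 1 and 10 in replicate 2, with a median log2 ratio of -0.089. Gpd1, the cytosolic enzyme of the glycerol phosphate shuttle, was the 1 enzyme past 2-fold, at 1.41 (1.34 to 1.48) with 5494 and 2135 counts, and its mitochondrial partner Gpd2 stood at 0.94. Adipocyte marker sums, given above, moved the same way, and their part was not tested. The malate-aspartate shuttle enzymes Mdh1 at 860 ± 58.8 TPM, Mdh2 at 721 ± 15.7 TPM and Got1 at 377 ± 17.7 TPM, and the mitochondrial creatine kinase Ckmt2, at 1024 TPM, were the highest.

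The family has 301 annotated transcripts, 144 of them protein-coding, and 91.4% ± 0.206 of its TPM fell on the protein-coding ones. Of 28 members that have several transcripts and average at least 5 TPM, 27 had the same main transcript in both hearts, or 96.4%, against 91.7% of 7015 genes. In 22, or 78.6%, the second quantification named that transcript too in both hearts, against 68.8%. The main transcript is uncertain for the other 6, among them Mtch1, Slc25a51, Slc25a22, Slc25a30 and Slc25a32. Slc25a32 was the 1 member whose main transcript differed between the hearts, with Slc25a32-201 at 49.0% and 40.5% and Slc25a32-203 at 33.9% and 46.2% of the gene in replicates 1 and 2. In 3 of the 28 the main transcript of the first quantification is not annotated as protein-coding. That count was not made over all genes, so whether it is particular to the family is not known. For Slc25a12 it was Slc25a12-207, annotated as a target of nonsense-mediated decay, at 68.2% and 68.4% in replicates 1 and 2, against 8.34% and 9.38% on its protein-coding transcript Slc25a12-206. For Mtch2 it was Mtch2-203, also annotated as a target of such decay, at 46.9% and 57.5%, and for Mtch1 it was Mtch1-203, a retained intron, at 41.5% and 38.1%. In the second quantification Mtch1-203 held only 8.68% and 8.75% of its gene in replicates 1 and 2, while Slc25a12-207 and Mtch2-203 stayed the main transcripts.

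Both quantifications gave close levels for the family. Of 33 members at 5 TPM or more in either, 0 were 2-fold apart, against 6.94% of 8592 genes and 3.02% of nuclear protein-coding genes under the same rule. At a mean of 5 TPM or more, 29 of 30 members were higher in the second quantification, with ratios of second over first between 0.913 and 1.60 and a median of 1.17. Slc25a16 at 1.60, Slc25a39 at 1.59, Slc25a11 and Ucp2 at 1.55 each and Slc25a23 at 1.52 were highest, and Slc25a51 was the 1 member below 1. The count of 29 of 30 was not made over all genes, so whether it is particular to the family is not known. As a share of nuclear protein-coding TPM the family was lower in the second quantification, at 1.04% against 1.10%.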

How the data were processed

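The authors deposited a first quantification with expected counts, TPM and FPKM for genes and transcripts and the percent of a gene's TPM in each transcript; per the sample notes it used mm10 and GENCODE M21. The authors also deposited a second one, derived, per the sample notes, from the reads with an index, with estimated counts and TPM of transcripts, summed here per gene. Their software was not given in the sources used here. FPKM served as an alternative unit.

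Expected counts were rounded for TMM factors (edgeR 4.0.16) and, as an alternative, DESeq2 1.42.0 size factors in R 4.3.3. Log2 ratios of replicate 1 over replicate 2 used a prior count of 1 and exact Clopper-Pearson 95% intervals, which cover counting error only. A 2-fold rule of size was applied from a mean expected count of 50, and medians from 10. Named are the 20 highest, fixed paralog groups, members under 1 TPM, the 6 widest ratios each way and members whose transcript or level differs between quantifications. The values of 1 member are counted in the totals but not reported here. Others, such as Slc25a38 and the transcripts that are not protein-coding, were named after their values were seen. Members, paralog groups and lists were chosen with earlier results of these data known. Near copies were found with BLAST 2.17.0 and promoters are from RefSeq (GRCm38.p6).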

Additional observations from a re-analysis of the deposited data

How the results depend on the processing

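No paired analysis was possible because all samples form 1 group. The family held 1.10% of nuclear protein-coding TPM, but 0.942% of expected counts and 1.04% of TPM in the second quantification, and the Slc25a4 share of the family was 49.3% by expected counts, a unit that is not corrected for length. The median log2 ratio turned to 0.0086 with no filter beyond 1 count, which adds members with few reads. At 3-fold 1 member was apart between the hearts, and at 1.5-fold 5 were apart between quantifications. With each heart alone, 41 to 42 members reached 1 TPM, the family share was 1.07% to 1.13%, the Slc25a4 share 44.8% to 46.6%, 22 to 26 main transcripts were shared by the quantifications and 0 members were 2-fold apart between them. Some paralog shares changed side or moved by over 1.5 times: Slc25a28 held 36.5% to 56.0% and Slc25a36 45.2% to 50.3% with each heart alone, Slc25a36 64.5%, Slc25a28 23.6% and Ucp3 24.8% by expected counts, and Mtch2 55.2% in the second quantification. The cause of these changes was not tested. The Slc25a37 ratio fell under 2-fold by library totals and by spike-in totals. Spike-in scaling moved the median of all genes to -0.075. For the main results 35 alternative values kept direction and stayed within 1.5 times a count or within the spread. For single genes and paralog groups 269 stayed on the same side of 2-fold or within 1 SD, including ratios near 0 of 5 members that changed sign, and 54 shares or levels moved by more than 1 SD with the same gene in the lead. Depth limits the 7 members with a mean count under 10, whose levels and ratios rest on few reads.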

Other observations

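Several members lie next to each other in the genome at very different levels. Within 100 kb on mm10, Slc25a41 with 0 counts lies 2056 bases from Slc25a23, which was at 21.8 TPM on average, and Slc25a54 with 0 counts lies 6461 bases from Slc25a24, at 2.46 TPM. On the X chromosome Slc25a43, at 0.150 TPM, lies 18448 bases from Slc25a5, at 174 TPM. Slc25a29 and Slc25a47, at 2.58 and 2.29 TPM, lie 162 bases apart on chromosome 12 on opposite strands, and their log2 ratios of replicate 1 over replicate 2 were -0.50 and -0.27. Coding lengths were alike across the family, from 795 to 2031 nt with a median of 954 nt, and 41 of 51 lay between 850 and 1100 nt; the longest were the aspartate/glutamate carriers Slc25a12 and Slc25a13.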
